A study of Mus musculus with 384 samples.

Results

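The 8 genes described here code for the Lin28 proteins, the RNA-binding proteins that accompany them in early embryonic cells, and a few of their partners: Lin28a, Lin28b, Trim71, Igf2bp1, Igf2bp2, Igf2bp3, Hmga2 and Dis3l2. They were chosen by name, as the rows of the raw count table whose Ensembl identifier maps to these symbols, and all 8 of them were found among 31617 genes in 384 cells. Smart-seq2, which copies full-length polyadenylated mRNA from single sorted cells and carries no molecular identifiers, was applied to mouse formative stem (FS) cells and to epiblast-derived stem cells (EpiSCs). FS cells represent pluripotency before lineage priming and EpiSCs the primed phase, and the comparison asks how these states differ.

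FS cell lines 5ar1 and 5ar2 were kept in AloXR, which holds 3 ng/ml activin A, 2 µM of the tankyrase inhibitor XAV939 and 1 µM BMS493, which holds retinoic acid receptors inactive. EpiSC line AFX6 was kept in AFX, with 20 ng/ml activin A, Fgf2 and 2 µM XAV939, and EpiSC line AF32 in AF, with the same activin A and Fgf2 but no XAV939. All lines shared a defined basal medium and fibronectin-coated plates. Each EpiSC medium was represented by 1 line, so that line and medium cannot be told apart, and FS cells and EpiSCs differed in medium throughout. The strain and the passage number of each line were not analysed here.

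Lin28 proteins bind the hairpin precursors of the let-7 microRNAs and block their maturation. The bound precursor receives a tail of uridines and is then degraded by the exonuclease Dis3l2, so that cells with abundant Lin28 hold little mature let-7. Mature let-7 in turn represses mRNAs through sites in their 3′ untranslated region (3′UTR), and Lin28a, Lin28b, Trim71, the Igf2bp genes and Hmga2 are classic examples of such targets. These genes are highly expressed in embryonic cells and, apart from Igf2bp2, silent in most adult tissues.

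To show what these proteins act upon, the let-7 sequences of RefSeq (build GRCm38.p6) were examined first. The 9 mature 5p sequences of the family shared 1 seed, bases 2 to 8 counted from the 5′ end, printed in capitals for a common member, for a pair that differ elsewhere, and for the X-linked relative miR-98.
let-7a-5p: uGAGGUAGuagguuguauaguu
let-7g-5p: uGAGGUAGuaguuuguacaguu
let-7e-5p: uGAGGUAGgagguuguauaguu
miR-98-5p: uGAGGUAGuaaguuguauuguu

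Lin28 is known to hold on to a GGAG motif near the 3′ end of the hairpin loop. Of the 12 let-7 hairpins in the RefSeq table, 9 had GGAG between the mature arms and 3 (let-7b, let-7c-2 and mir-98) had none, searched on the transcribed strand only. For comparison, 44.5% of all 1005 mouse hairpins held GGAG at any position. The hairpin of let-7g (chr9:106178840-106178927, plus strand) is printed with its GGAG in capitals, beside that of let-7b (chr15:85707319-85707403, plus strand), in which the loop carries none.
let-7g hairpin: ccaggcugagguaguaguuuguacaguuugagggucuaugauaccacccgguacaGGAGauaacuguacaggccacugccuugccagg
let-7b hairpin: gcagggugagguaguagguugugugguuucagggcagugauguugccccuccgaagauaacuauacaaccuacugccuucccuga

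The complement of the shared seed, CTACCTC, was then searched on the mRNA strand in the longest annotated 3′UTR of each gene (GENCODE M21, GRCm38). All 8 genes held at least 1 match, 21 in total, of which 13 were followed by an A. Among the 16936 genes of the table with an annotated 3′UTR, 11.3% had a match. Long 3′UTRs have more chances of a match, and each gene is therefore set beside 3′UTRs of like length. Hmga2 had 4 matches in 3014 bases, where 17.8% of 2460 such 3′UTRs held any and 0.122% held at least 4. Trim71 had 4 in 5512 bases (30% of 829 held any, 0.483% at least 4). Igf2bp1 had 4 in 6337 bases (34.1% of 587 held any, 0.341% at least 4). Lin28b had 4 in 4445 bases (26% of 1396 held any, 0.287% at least 4). Lin28a had 2 in 2775 bases (16.1% of 2613 held any, 2.5% at least 2). A single match was found in Igf2bp2 (1784 bases, 13.3% of 2944), Igf2bp3 (2119 bases, 14.9% of 2938) and Dis3l2 (2457 bases, 15.8% of 2765). These are letters in a window, and whether let-7 acts on any of them in these cells was not tested.

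The match in Dis3l2, and some of those in Lin28b, Igf2bp1 and Hmga2, were not followed by an A. Some matches followed by an A are shown for Lin28a, Trim71, Igf2bp1 and Hmga2, in windows of 22 bases with CTACCTC in capitals. Each lies in the 3′UTR of its gene on the minus strand of GRCm38, at chr4:134005189-134005210 and chr4:134004551-134004572 for Lin28a, chr9:114512472-114512493 and chr9:114512376-114512397 for the first of Trim71, chr11:95961778-95961799 for the first of Igf2bp1 and chr10:120364224-120364245 for the first of Hmga2.
Lin28a site 1: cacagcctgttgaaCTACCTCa
Lin28a site 2: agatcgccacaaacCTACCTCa
Trim71 site 1: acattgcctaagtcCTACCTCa
Trim71 site 2: gtgataatttctatCTACCTCa
Igf2bp1 site 1: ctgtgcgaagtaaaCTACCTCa
Hmga2 site 1: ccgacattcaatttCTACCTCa

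Of 96 cells sorted from each line, those with at least 3000000 counts were kept, 90 of 5ar1, 90 of 5ar2, 66 of AFX6 and 80 of AF32. Kept cells held between 3022666 and 6686007 counts, and the median number of detected genes lay between 10328 in AFX6 and 11567.5 in 5ar2. Pou5f1, a defining gene of pluripotent cells, had a count in every kept cell of every line, at 490 to 644 CPM. So had Dnmt3b, Utf1 and Epcam. Sox2 read 4.88 to 17.5 CPM, with a count in 43.9 to 86.7% of cells. Nanog read 28.5 and 33.5 CPM in 5ar1 and 5ar2 against 159 and 400 in AFX6 and AF32. Among formative markers, Fgf5 (229, 272, 30.7 and 44.9 CPM in that order of lines), Pou3f1 and Otx2 were higher in both FS lines. Dnmt3a and Sox3 overlapped. The naive markers present in the table summed to at most 4.83 CPM in any line. Levels are given as CPM, counts per 1000000 counts, either per cell or for a line (summed CPM: the counts of the gene over all kept cells of the line, per 1000000 of their total). With lines as the replicates the groups are 2 against 2, and a permutation of single values cannot give a p below 0.333. As a check of RNA carried between wells, 4 Y-linked genes that summed to 197 CPM on average in the other lines summed to 0.547 CPM in AFX6, or 0.278%. That share of the highest level of any of the 8 genes is 1.455 CPM, under the lowest line level of any of them, 11.7 CPM. Single cells are another matter. The Y-linked gene Eif2s3y, at 0.295 CPM in AFX6, still had a count in 80.3% of AFX6 cells, so a bare count does not show expression in a cell. The plot of CPM per cell by line shows all kept cells.

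**Figure D1:**
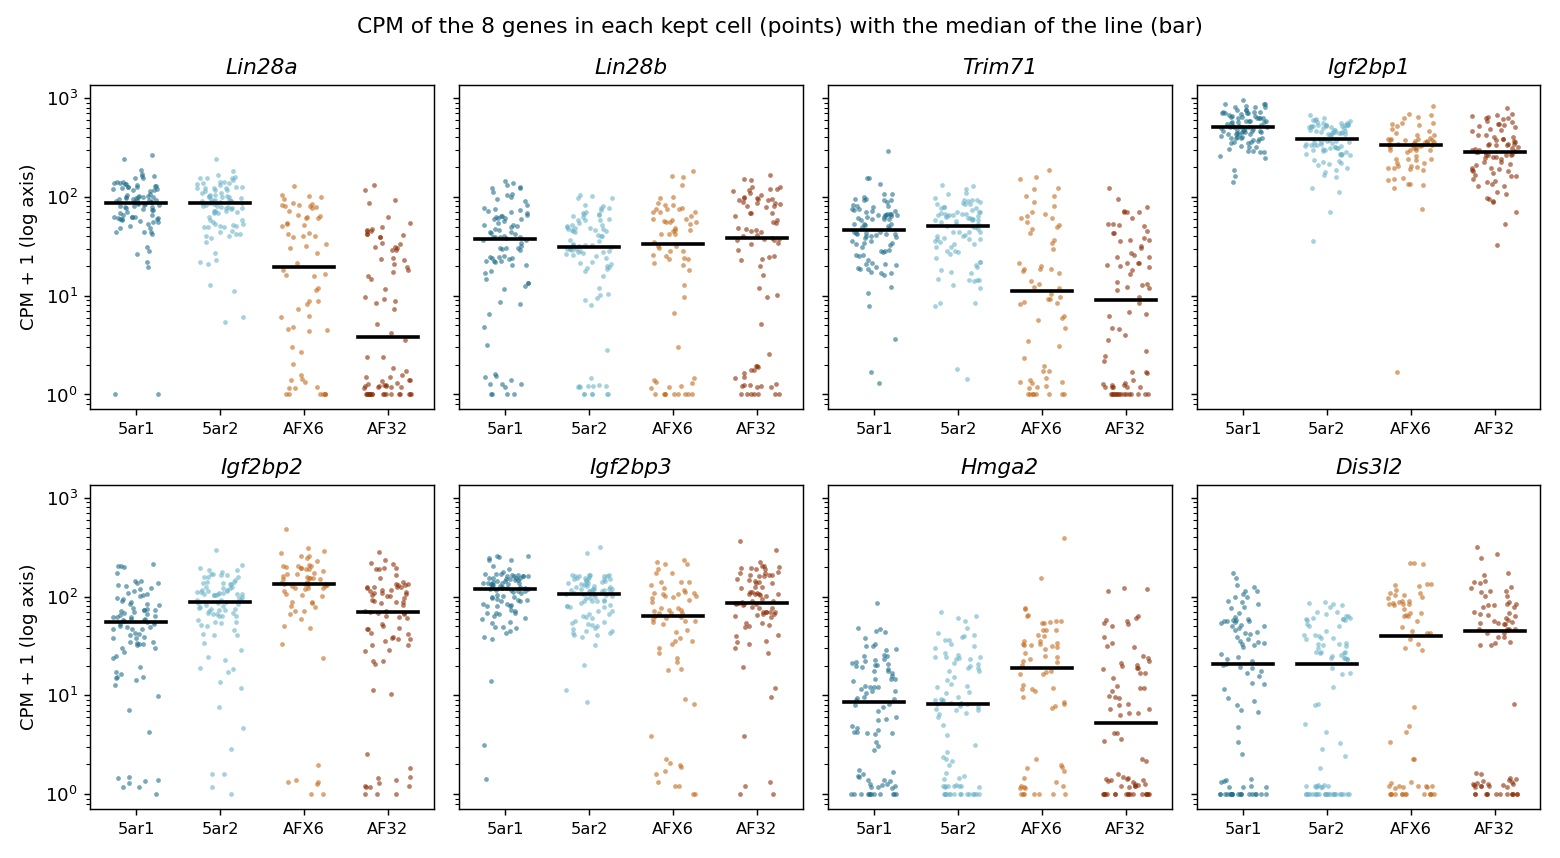
CPM plus 1 on a log axis for each of the 8 genes in every kept cell (points), by line on the horizontal axis, with the median of the line as a bar. Median Lin28a was 86.3 and 85.2 CPM in 5ar1 and 5ar2 but 18.6 in AFX6 and 2.852 in AF32, and Lin28a cells under 10 CPM number 2 in each FS line against 27 in AFX6 and 47 in AF32. Cells under 10 CPM are found in every line for Lin28b (17, 20, 19 and 26 in the order 5ar1, 5ar2, AFX6, AF32), Hmga2 (50, 56, 24 and 50) and Dis3l2 (36, 41, 29 and 32). Such cells are also found in every line for Trim71, Igf2bp2 and Igf2bp3, but not for Igf2bp1.

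Between FS cells and EpiSCs, Lin28a showed the largest difference of the 8 genes, with both FS lines above both EpiSC lines, followed by Trim71 in the same direction and Dis3l2 in the opposite one. None of these passed edgeR's quasi-likelihood test with Benjamini-Hochberg adjustment over 22606 genes, in which 0 genes were called (0% in each direction) at an adjusted p under 0.05 with a log2 fold change past 1.4, although 3636 genes had an unadjusted p under 0.05. The lowest adjusted p of any of the 22606 genes was 0.190, so that none passed here or in the lists below. Genes given 0.190 share that lowest value. The common dispersion between lines was 0.653. On the same sums DESeq2 called 1454 genes (3.17% of genes higher and 3.26% lower in FS cells), and limma on mean CPM per cell called 0, with 3533 at an unadjusted p under 0.05. Of the 8 genes, 4 (Lin28a, Trim71, Igf2bp1 and Igf2bp3) had both FS lines above both EpiSC lines, as had 26.8% of all genes tested and 27% of the 10085 genes with 10 CPM or more in a line. Both FS lines lay below for 2 (Hmga2 and Dis3l2), as for 21.5% of all genes and 28% of those with 10 CPM. Lin28b and Igf2bp2 overlapped. The plot of summed CPM by gene gives the 4 lines side by side.

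**Figure D2:**
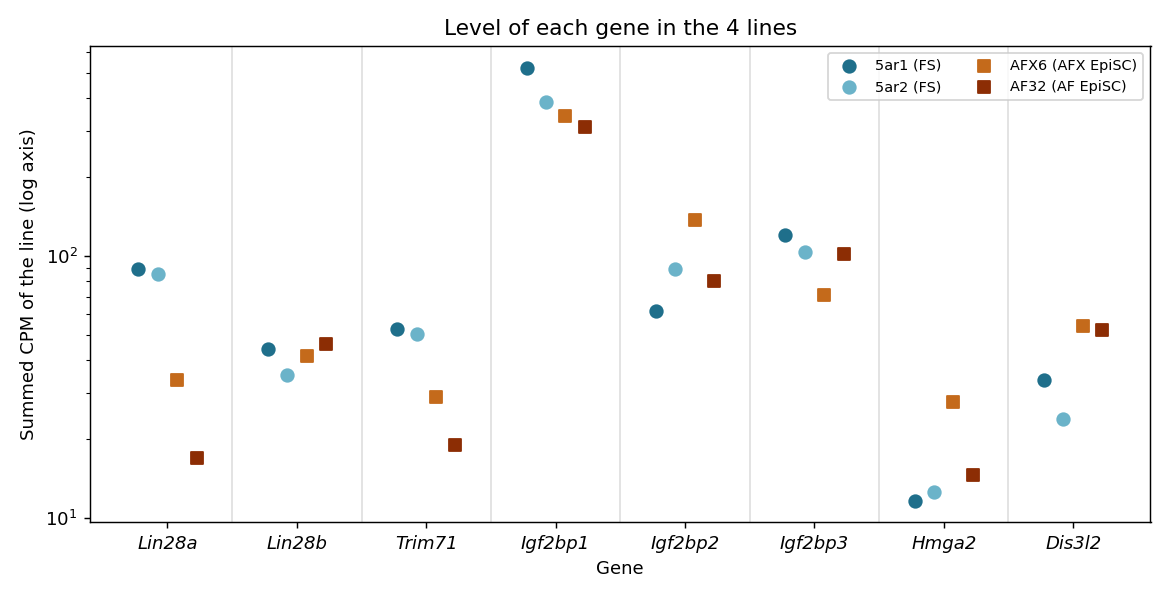
Summed CPM on a log axis for each gene in FS lines 5ar1 and 5ar2 (circles) and EpiSC lines AFX6 and AF32 (squares), 1 point per line. For Lin28a the circles lie at 89.2 and 85.1 CPM and the squares at 33.7 and 17.0 CPM, whereas for Lin28b and Igf2bp2 circles and squares interleave.

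Lin28a (ENSMUSG00000050966, chr4:134003330-134018841, minus strand) codes for the Lin28 protein best known from pluripotent cells. In kept cells it ranged from 0 through a median of 86.3 to 263 CPM in 5ar1, and from 4.38 through 85.2 to 243 CPM in 5ar2. In AFX6 the range was 0 to 127 CPM around a median of 18.6, and in AF32 0 to 131 CPM around a median of 2.852. The lowest cells of 5ar1, AFX6 and AF32 sat at 0, and the highest cells of the EpiSC lines exceeded the median of either FS line. Summed CPM averaged 87.2 ± 2.9 (SD, n = 2 lines) in FS cells and 25.3 ± 11.8 (SD, n = 2) in EpiSCs, and the nearest FS and EpiSC lines stood 2.5-fold apart. A margin of at least 2-fold between the nearest lines in that direction was found for 7.9% of all genes tested, and for 227 of the 10085 genes with 10 CPM or more in a line. The log2 fold change was 1.769 (SE 0.41), with an edgeR adjusted p of 0.190. DESeq2 gave 1.7 with an adjusted p of 0.00145, which made Lin28a the only one of the 8 genes among its calls. Over 12 settings of the fit the adjusted p of Lin28a ran from 0.00145 to 0.751, and the log2 fold change from 1.3 to 2.4.

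The lines also differed in how many cells held little Lin28a. Cells under 10 CPM numbered 2 of 90 in either FS line, against 27 of 66 in AFX6 and 47 of 80 in AF32. Conversely, 77, 70, 23 and 6 cells reached 50 CPM. After every kept cell was thinned to 3000000 counts, a count was found in 97.8% of 5ar1 cells (exact Clopper-Pearson 95% interval 92.2 to 99.7) and 100% of 5ar2 cells (96 to 100), against 84.8% for AFX6 and 72.5% for AF32, beside unthinned shares of 97.8, 100, 89.4 and 77.5%. Intervals of this kind, here and for folds between lines, cover counting error only. At a limit of 1 CPM the Lin28a shares were 97.8, 100, 78.8 and 53.8% in the order 5ar1, 5ar2, AFX6 and AF32. The 10% of cells with the highest level held 20% of the summed per-cell CPM in 5ar1 and 44.8% in AF32. Within lines, the Spearman rho of Lin28a with the number of detected genes was 0.06 and 0.20 in 5ar1 and 5ar2 and 0.22 and 0.31 in AFX6 and AF32, over 66 to 90 cells of a line, and its part in the result was not tested.

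Lin28b (ENSMUSG00000063804, chr10:45376620-45486395, minus strand), the paralogue with the same cold shock and zinc knuckle domains, gave another order of the lines than Lin28a. Summed CPM was 44.1 and 35.2 in 5ar1 and 5ar2 against 41.5 and 46.4 in AFX6 and AF32, so that the FS values lay on either side of the AFX6 value. Per-cell medians were 36.6, 30.4, 33 and 37.0 CPM, with a lowest cell at 0 in each line and the highest at 142, 103, 181 and 165 CPM. The log2 fold change between FS cells and EpiSCs was -0.15 (SE 0.22) with an edgeR adjusted p of 0.835. A count was present in 86.4 to 95.6% of the cells of each line before thinning and 83.3 to 94.4% after. At least 1 CPM of Lin28b was reached by 72.5% of cells in AF32 and up to 86.7% in 5ar1.

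Because the paralogues differ in length, their levels were compared per kilobase of the union of exons (3996 bases for Lin28a and 9065 for Lin28b). On that scale Lin28a exceeded Lin28b 4.59-fold in 5ar1, 5.49-fold in 5ar2 and 1.8-fold in AFX6, whereas the ratio was 0.83 in AF32. With the longest coding transcript as the length the ratios were 3.12, 3.73, 1.251 and 0.56, in the same order of lines. Cell by cell and per kilobase of exon, Lin28a was the higher in 85 of 90 cells in either FS line, against 37 of 66 in AFX6 and 31 of 80 in AF32. Taking any count, however low, both transcripts were found together in 84, 84, 51 and 57 cells. Counts of Lin28b alone were held by 2, 0, 6 and 16 cells, of Lin28a alone by 4, 6, 8 and 5, and of neither by 0, 0, 1 and 2, in the same order of lines.

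**Figure D3:**
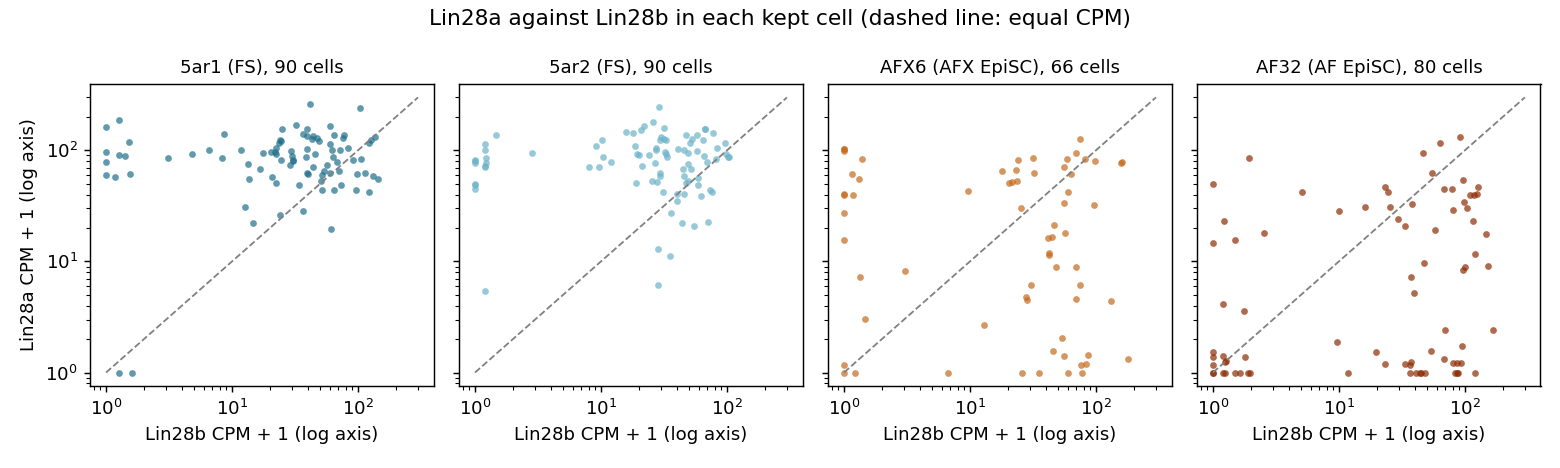
Lin28a (vertical) against Lin28b (horizontal), both as CPM plus 1 on log axes and not corrected for length, in each kept cell of the 4 lines, with a dashed line at equal CPM. Lin28a CPM was the higher in 71 of 90 and 72 of 90 FS cells but in 30 of 66 AFX6 and 22 of 80 AF32 cells, the rest of which spread towards low Lin28a.

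Dis3l2 (ENSMUSG00000053333, chr1:86703808-87050095, plus strand), the exonuclease that degrades uridylated let-7 precursors, was lower in both FS lines than in both EpiSC lines. Summed CPM was 33.7 (5ar1) and 23.8 (5ar2) beside 54.1 (AFX6) and 52.2 (AF32), and the nearest lines stood 1.5-fold apart. Means were 28.8 ± 7.00 (SD, n = 2) in FS cells and 53.1 ± 1.4 (SD, n = 2) in EpiSCs. For Dis3l2 the log2 fold change was -0.89 (SE 0.26), with an edgeR adjusted p of 0.224 and 0.0355 to 0.751 over 12 settings, the lowest from DESeq2. Under 10 CPM lay 36, 41, 29 and 32 cells in the order 5ar1, 5ar2, AFX6 and AF32. Between 10 and 50 CPM lay 29, 31, 8 and 13 cells, and 25, 18, 29 and 35 reached 50 CPM. The lowest cell was at 0 in every line, the medians were 19.6, 19.9, 38.9 and 43.5 CPM, and the highest cells reached 172, 87.8, 219 and 315 CPM.

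Trim71 (ENSMUSG00000079259, chr9:114507133-114564369, minus strand) codes for a TRIM-NHL protein, a ubiquitin ligase that also represses mRNAs, and has as its worm orthologue lin-41, a founding let-7 target. It followed the order of Lin28a, with summed CPM of 52.7 and 50.3 in the FS lines 5ar1 and 5ar2, 29.1 in AFX6 and 19.0 in AF32. Medians per cell were 45.5, 49.8, 10.3 and 8.08 CPM, from a lowest cell of 0.31, 0.42, 0 and 0 to a highest of 291, 130, 184 and 123 CPM. Every kept FS cell thus held a count of Trim71, and 97.8% of the cells of each FS line reached 1 CPM. Cells under 10 CPM numbered 33 of 66 in AFX6 and 41 of 80 in AF32, against 5 of 90 in each FS line. Between groups the log2 fold change was 1.08 (SE 0.30), with an edgeR adjusted p of 0.216 and 0.0260 to 0.751 over 12 settings, the lowest from DESeq2.

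Cells low in Lin28a and cells low in Trim71 were set side by side. Of 66 AFX6 cells, 27 lay under 10 CPM for Lin28a, 33 for Trim71 and 16 for both. Of 80 AF32 cells the numbers were 47, 41 and 31. In 5ar1 and 5ar2, 1 and 0 of 90 cells were low in both. Across the cells of a line the Spearman rho of the pair was 0.45 in AF32, but 0.06 in AFX6, 0.05 in 5ar1 and 0.14 in 5ar2.

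The Igf2bp proteins (IMP1 to IMP3) bind mRNAs through KH domains and protect them or govern their transport and translation. Igf2bp1 (ENSMUSG00000013415, chr11:95957163-96005940, minus strand) was the most abundant, and the highest of the 8 genes per kilobase in every line by either measure of length, at 32 to 54.0 CPM per kilobase of exon. Summed CPM was 523 (5ar1), 387 (5ar2), 341 (AFX6) and 311 (AF32). All kept cells held a count, with medians of 509, 380, 335 and 286 CPM, a lowest cell at 140, 34.9, 0.673 and 31.8 CPM and a highest at 962, 679, 833 and 786 CPM. The FS lines lay above the EpiSC lines, but the 1.3-fold gap between 5ar1 and 5ar2 exceeded the 1.1-fold gap between 5ar2 and AFX6. For Igf2bp1 the log2 fold change was 0.47 (SE 0.21), with an edgeR adjusted p of 0.397, and 0.22 without 5ar1.

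Igf2bp1 lies on chromosome 11, which carried raised expression in most AF32 cells. The mean level of 617 genes of that chromosome, relative to the other autosomes of the cell, exceeded 1.2 in 66 of 80 AF32 cells (median 1.3), against 11 of 90 for 5ar1, 0 of 90 for 5ar2 and 9 of 66 for AFX6 (medians 0.90 to 0.91). Igf2bp1 in AF32 correlated with that ratio across cells (Spearman rho 0.30, 80 cells of 1 line). Divided by the median ratio of its line, Igf2bp1 stood at 573, 430, 376 and 242 in the order 5ar1, 5ar2, AFX6, AF32, which left the order of the lines as it was and AF32 further below AFX6 than the 1.1-fold of the undivided levels. For Igf2bp2 on chromosome 16, 32 of 90 cells of 5ar2 exceeded 1.2, with a rho of 0.29, and for Lin28b and Hmga2 on chromosome 10, 18 of 80 cells of AF32 did. The part of these ratios in the levels was not tested.

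Igf2bp2 (ENSMUSG00000033581, chr16:22059009-22163299, minus strand), the member of the family that persists in adult tissues, was highest in AFX6. Summed CPM was 62.0 and 89.6 for 5ar1 and 5ar2 and 137 and 80.4 for AFX6 and AF32, with medians of 53.8, 86.3, 133 and 68.2 CPM, a lowest cell at 0 in each line and highest cells at 213, 297, 477 and 285 CPM. AFX6 stood 1.704-fold above AF32 (95% interval 1.679 to 1.729) and 5ar2 1.445-fold above 5ar1 (1.422 to 1.468), and the lines of the groups overlapped. The log2 fold change between FS cells and EpiSCs was -0.53 (SE 0.37; edgeR adjusted p 0.607), and it was -0.07 without AFX6, -0.31 without 5ar1, -0.83 without 5ar2 and -0.89 without AF32.

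Igf2bp3 (ENSMUSG00000029814, chr6:49085223-49214957, minus strand), like Igf2bp1 an oncofetal gene, read 120 and 104 summed CPM in the FS lines 5ar1 and 5ar2, 71.0 in AFX6 and 102 in AF32. Medians were 120, 105, 62.2 and 86.2 CPM, and cells ran from 0.442, 7.65, 0 and 0 up to 255, 315, 233 and 367 CPM. AF32 exceeded AFX6 1.435-fold (95% interval 1.412 to 1.459) and came within 1.02-fold of 5ar2. For Igf2bp3 the log2 fold change was 0.37 (SE 0.24; edgeR adjusted p 0.570), with 0.24 when 5ar1, 0.15 when AFX6 and 0.62 when AF32 was left out. Exons of Igf2bp3 overlap those of Malsu1 on the opposite strand, a gene with 117539 counts over the kept cells, and reads of the pair cannot be told apart where the strand is not used. Gm29202 overlaps Igf2bp1 in the same way with 6488 counts.

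Taken per kilobase of exon, Igf2bp1 supplied 70.1% of the 3 Igf2bp transcripts in 5ar1 and 61.7% in 5ar2, against 56.4% for AFX6 and 57.9% for AF32. Igf2bp2 made up 29.6% in AFX6 against 10.9 to 19.6% in the other lines, and Igf2bp3 13.9% in AFX6 against 19.1 to 22.5%. With the longest coding transcript as the length, Igf2bp1 still led in each line, at 44.1 to 58.9%. The lead was small in AFX6, at 44.1% against 38.1% for Igf2bp2. Igf2bp1 was the highest of the 3 per cell in 89 of 90, 83 of 90, 53 of 66 and 63 of 80 cells.

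**Figure D4:**
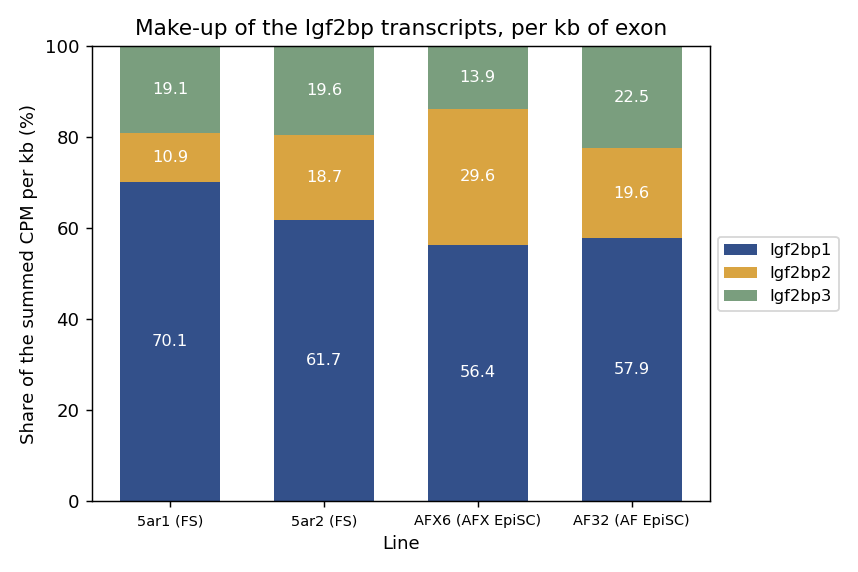
Share of Igf2bp1, Igf2bp2 and Igf2bp3 in their summed CPM per kilobase of exon (percent, stacked to 100) in each of the 4 lines. Igf2bp1 makes up 56.4 to 70.1%, and the Igf2bp2 section is tallest in AFX6, at 29.6%.

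Hmga2 (ENSMUSG00000056758, chr10:120361275-120476469, minus strand), a chromatin protein of embryonic cells whose mRNA carries the let-7 seed matches counted above, was the least abundant of the 8 genes in summed CPM. It read 11.7 (5ar1), 12.6 (5ar2), 27.9 (AFX6) and 14.6 (AF32), with medians of 7.66, 7.21, 18.1 and 4.29 CPM. In every line the lowest cell was at 0, and the highest reached 84.7, 69.0, 395 and 120 CPM. The single highest cell of AFX6 held 20.3% of the summed per-cell CPM of that line, and without the highest cell of each line AFX6 read 23.7. The FS lines lay below the EpiSC lines with a gap of 1.2-fold between 5ar2 and AF32, while AFX6 exceeded AF32 1.903-fold (95% interval 1.839 to 1.969). The log2 fold change between groups was -0.82 (SE 0.42), with an edgeR adjusted p of 0.458. It was -0.25 without AFX6 and -1.2 without AF32.

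Between the EpiSC lines, which have 1 line each and no test, none of the 8 genes passed 2-fold in summed CPM. Other settings took Lin28a past it, at a log2 fold for AF32 minus AFX6 of -1.268 with cells of at least 4000000 counts and -1.022 without the highest cell of each line, and Hmga2, at -1.1 with cells of at least 4000000 counts and -1.2 over all cells. Of 9662 genes at 10 CPM or more in one of them, 18.4% stood at least 2-fold apart. Lin28a came closest, 1.986-fold higher in AFX6 (95% interval 1.924 to 2.049), and Trim71 was 1.5-fold higher there. Lin28b, Igf2bp1 and Dis3l2 differed by at most 1.117-fold. Between the FS lines, which shared a medium, 0 of the 8 genes passed 2-fold, as against 3.91% of 9119 genes. Lin28a and Trim71 each differed 1.05-fold between 5ar1 and 5ar2, the least of the 8 genes, and Igf2bp2 (1.445-fold) and Dis3l2 (1.415-fold) the most.

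Genes with a like pattern from cell to cell were then sought. Among 5742 genes with at least 20 CPM in every line, 0 reached a within-line Spearman rho of 0.3 with any of the 8 in all 4 lines. The most alike on average were Hnrnpu for Igf2bp1 (mean rho 0.34, lowest 0.20), an RNA-binding protein found with Igf2bp1 in a complex that stabilises coding regions, and the helicase gene Ddx21 for Hmga2 (0.31, lowest 0.22). For Lin28a they were Pa2g4, Npm1 and Nap1l1, each with a mean of 0.28. For Lin28b, Trim71, Igf2bp2, Igf2bp3 and Dis3l2 the leading genes (Utp20, Lman1, Isg20l2, Cdc20 and Mrps18b) had means of 0.23 to 0.26. Igf2bp1 itself correlated with the number of detected genes (rho 0.42, 0.39, 0.32 and 0.21 in 5ar1, 5ar2, AFX6 and AF32). After adjustment for that number, its mean rho with Hnrnpu was 0.31 (lowest 0.15). Among the 8 genes themselves the highest mean rho was 0.26, for Lin28a with Hmga2 (0.14 to 0.35). Cells of a line share its culture, and rhos of this size in sparse counts are given as values only.

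Other genes of the pathway were taken from lists. In microRNA processing, 7 of 13 genes tested had both FS lines above both EpiSC lines, 2 below and 4 overlapping, where 26.8% of all genes tested lay above and 21.5% below. The median log2 fold change was 0.14 against -0.01 over all genes tested, and 0 passed the edgeR test. Dgcr8, the RNA-binding subunit of the Microprocessor, read 60.5, 49.8, 8.13 and 14.4 summed CPM in 5ar1, 5ar2, AFX6 and AF32 (log2 fold change 2.3, SE 0.36, edgeR adjusted p 0.190). Xpo5, which exports pre-microRNAs from the nucleus, read 121, 120, 59.5 and 54.1 CPM, and Tarbp2, a Dicer partner, 125, 191, 84.1 and 68.6 CPM. The Argonaute gene Ago1 went the other way, at 20.2, 14.3, 23.1 and 60.5 CPM. Prkra was 1.8-fold higher in AF32 than in AFX6.

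In RNA tailing and decay, 10 of 17 genes had both FS lines above (26.8% of all genes tested), 1 below (21.5% of all) and 6 overlapping (median log2 fold change 0.47; 0 passed). Dis3, the paralogue of Dis3l2 that serves the nuclear exosome, lay in the direction opposite to Dis3l2, at 93.9, 102, 38.6 and 48.6 summed CPM (log2 fold change 1.2, SE 0.20, edgeR adjusted p 0.190). Exosome subunit genes Exosc1 (93.5, 129, 56.6 and 63.9 CPM) and Exosc9 (137, 167, 74.9 and 101 CPM) and the terminal uridylyltransferase gene Tut1 (64.3, 75.0, 21.3 and 40.3 CPM) were also above in both FS lines. Tut7, which codes for an enzyme that tails let-7 precursors, overlapped between groups at 23.3, 14.1, 16.1 and 29.2 CPM, and Dis3l was 1.97-fold higher in AFX6 than in AF32.

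Of 17 let-7 hairpins and host transcripts listed, 6 were in the table. The hairpin rows of Mirlet7f-2, Mirlet7g and Mir98 stood at 0.0812 CPM or less in every line, which says little, since polyadenylated mRNA was copied and mature let-7 was not measured. The hosts Wdr82 (let-7g) and Huwe1 (let-7f-2 and mir-98) are protein-coding genes in their own right, and read 56.9, 38.9, 25.3 and 33 CPM and 116, 77.9, 90.1 and 146 CPM in the same order of lines.

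For 21 other let-7 targets, 9 had both FS lines above both EpiSC lines (26.8% of all genes tested), 2 below (21.5% of all) and 10 overlapping, with a median log2 fold change of 0.15 and 0 past the test. Mycn, a Myc family transcription factor, read 219, 219, 72.6 and 90.7 CPM (log2 fold change 1.4, SE 0.18, edgeR adjusted p 0.190) and Hras 114, 87.8, 48.7 and 40.3 CPM. In the other direction lay the cyclin-dependent kinase gene Cdk6 (90.2, 87.1, 187 and 182 CPM; log2 fold change -1.06, SE 0.16, edgeR adjusted p 0.190) and the insulin receptor gene Insr (11.8, 8.93, 13.8 and 34.6 CPM). Between the EpiSC lines, 5 of 20 were at least 2-fold apart, where 18.4% of genes at 10 CPM or more were, in either direction. All 5 were higher in AF32, among them cyclin D2 (Ccnd2, 66.0 CPM in AFX6 and 275 in AF32), Plagl2 (12.7 and 46.3) and Tgfbr1 (8.12 and 21.7). The share of all genes higher in AF32 by that much was not computed.

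Among 7 mRNAs known as targets of Trim71, 0 had both FS lines above, 3 had both below and 4 overlapped (median log2 fold change -0.41; 0 passed). Egr1, an immediate early transcription factor, read 20.1, 37.6, 66.7 and 163 CPM (log2 fold change -1.99, SE 0.57, edgeR adjusted p 0.224), and Rbl1, a retinoblastoma relative, 14.0, 18.2, 23.1 and 42.0 CPM. The cell cycle inhibitor gene Cdkn1a overlapped between the groups, with 182 CPM in AFX6 and 47.7 in AF32 around 110 and 134 CPM in the FS lines. The 3 below are set against 21.5% of all genes tested and 28% of those with 10 CPM or more in a line. Rbl2, the third of them, lay under the limit of 10 CPM for named genes, at 2.358, 1.695, 3.277 and 2.712 CPM. Whether Trim71 acts on these mRNAs in these cells was not tested.

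IGF2BP partners and m6A factors had 8 of 14 genes with both FS lines above, 1 below and 5 overlapping, beside 26.8% above and 21.5% below over all genes (median log2 fold change 0.40; 0 passed). Syncrip (153, 142, 52.5 and 75.9 CPM) and Hnrnpu (1051, 1032, 400 and 582 CPM), both found with Igf2bp1 on mRNA, and the m6A reader gene Ythdf1 (88.9, 63.0, 21.4 and 39.0 CPM) lay above in FS lines, with edgeR adjusted p-values of 0.190, 0.190 and 0.220. Alkbh5, an m6A eraser, lay below at 94.5, 76.6, 138 and 239 CPM. The cold shock protein gene Ybx1 read 2087 CPM in AFX6 and 1410 in AF32.

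The Igf axis had 1 of 8 genes with both FS lines above (all genes 26.8%), 3 below (all genes 21.5%) and 4 overlapping (median log2 fold change -0.16; 0 passed). Igf2r, the receptor that clears Igf2, read 17.2, 15.8, 22.0 and 36.3 CPM, and Irs2 was 2.6-fold higher in AF32 than in AFX6. Igf2 itself, named here after its values were seen because the binding proteins carry its name, stayed at 1.2, 1.9, 2.0 and 9.0 CPM. Of 7 TRIM-NHL and cold shock relatives, 2 had both FS lines above, 1 below and 4 overlapping, against the same 26.8% and 21.5% (median log2 fold change -0.07; 0 passed). Trim2, a TRIM-NHL ligase best known from neurons, read 48.8, 39.1, 3.57 and 17.6 CPM (log2 fold change 2.06, SE 0.81, edgeR adjusted p 0.335), and Trim32 51.4, 52.2, 43.1 and 39.4 CPM. Trim3 was 1.5-fold and Ybx3 1.8-fold apart between the EpiSC lines, Trim3 higher in AF32 and Ybx3 in AFX6.

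**Figure D5:**
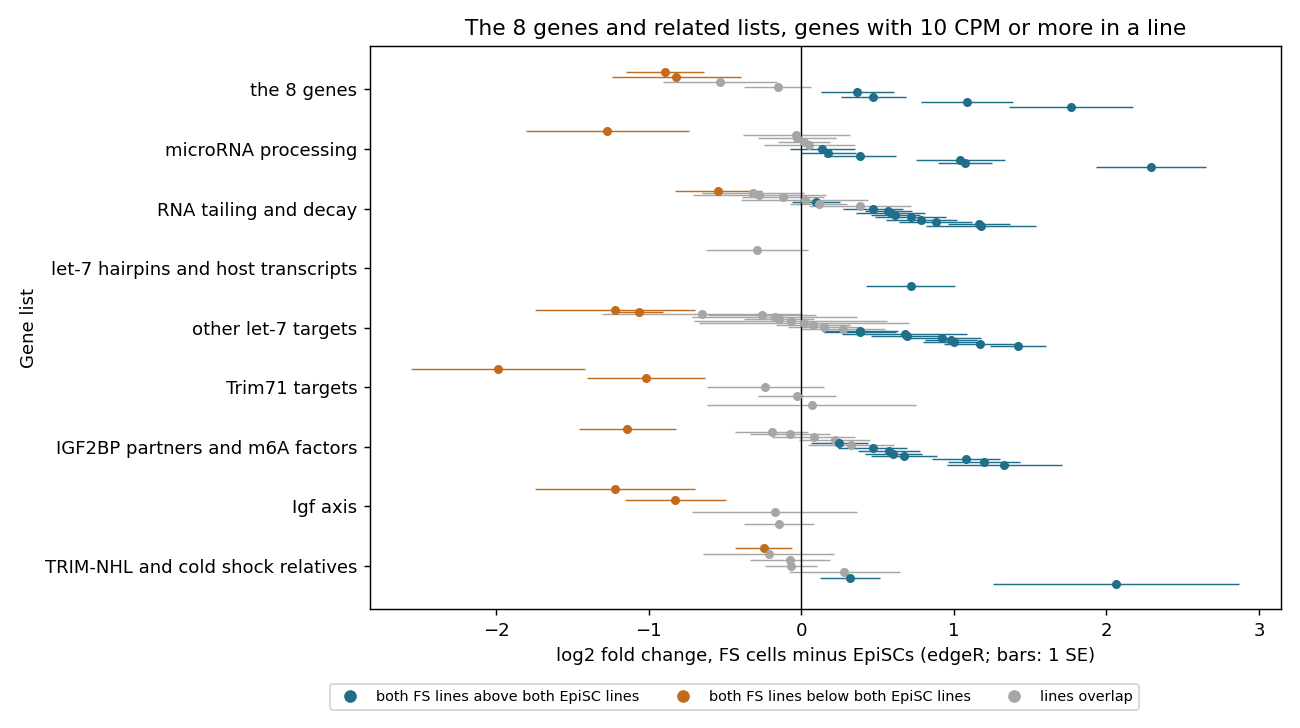
The edgeR log2 fold change of FS cells minus EpiSCs (horizontal, with bars of 1 SE) for the 8 genes and the genes of the related lists with at least 10 CPM in a line, grouped by list on the vertical axis and coloured by whether both FS lines lay above, below or among the EpiSC lines. The 8 genes spread from -0.89 for Dis3l2 to 1.769 for Lin28a, and the Trim71 targets reach -1.99 with Egr1.

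Markers of other cell types were examined beside these levels. The neuronal tubulin gene Tubb3 read 335, 130, 12.2 and 68.7 CPM in 5ar1, 5ar2, AFX6 and AF32, and the 4 neural markers summed to 338, 134, 16.6 and 77.5 CPM, of which Tubb3 was the largest part in every line. Sox1 was highest in AF32 (8.36 CPM) and Pax6 in AFX6 (4.13 CPM), and Neurog2 was at most 0.195 CPM. The 5 streak markers summed to 61.5, 52.0, 7.88 and 54.6 CPM, with Eomes at 61.3, 48.2, 6.623 and 5.84 CPM and T at 39.1 CPM in AF32 but at most 0.382 in the others. Foxa2 was highest in AF32 (7.91 CPM), and Mixl1 and Gsc stayed at 1.759 CPM or less. Endoderm and trophoblast markers summed to 3.48 CPM or less in every line, and fibroblast markers to 7.57 to 40.7 CPM, most in 5ar2. The neural sum, Tubb3 and Eomes, like Lin28a and Trim71, were higher in both FS lines than in both EpiSC lines, while the streak sum overlapped, and the part of these markers in the differences was not tested. In sums over cells, fewer cells of a kind and less RNA per cell cannot be told apart, and the counts of cells given for each gene serve to show both.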

How the data were processed

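Single-cell libraries of 384 mouse cells, 96 from each of 4 lines, were grouped by line from the sample labels. The authors deposited raw counts, made from uniquely mapped reads with STAR 2.7.3a on GRCm38.p6 and featureCounts 2.0.0 per the submitters' processing notes, and a table of normalized values, a score from sctransform whose exact output is not given in the sources used here. Alignment and counting were not repeated. Reads counted without strand cannot be split between overlapping genes.

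Cells with at least 3000000 counts were kept, the limit the study used, and these were the same 326 cells as in the normalized table. Where a gene has 0 counts, up to 3 counts remain possible. Counts were summed per line and FS lines were tested against EpiSC lines with edgeR 4.0.16 in R 4.3.3 (TMM, filterByExpr, quasi-likelihood test, Benjamini-Hochberg adjustment over all genes tested), with calls where the adjusted p was under 0.05 and the log2 fold change beyond 1.4 in either direction. Nothing says that the lines of a group came from separate experiments beyond being separate lines, so p-values measure the spread between these lines. Lines within a group were compared by folds of summed counts with exact conditional 95% intervals. The FS lines shared a medium, whereas the EpiSC lines differed in medium. Shares of cells carry exact Clopper-Pearson 95% intervals (scipy 1.17.1), after thinning with the seed 1. Since no molecular identifiers were read, copies of 1 molecule count repeatedly, and no cells had identical counts (0).

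Gene positions, exon lengths and 3′UTRs came from GENCODE M21, and 52 identifiers had no symbol there. For each chromosome, genes averaging 20 CPM or more were divided by their mean over kept cells, capped at 3, and averaged relative to the other autosomes of the cell. Alternatives were DESeq2 1.42.0, limma 3.58.1 on mean CPM per cell, edgeR with no low-count filter or with size factors from DESeq2, a limit of 4000000 counts, all cells, thinning to 1000000 counts, sctransform values, division by the chromosome's ratio and each line left out. Leaving out the highest cell of each line, or the cells whose number of detected genes lay over 3 median absolute deviations below their line's median, was chosen after seeing the data.

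The genes and lists were chosen with earlier results of these data known. Named are all 8 genes and, from each list, genes with at least 10 CPM in a line: up to 4 with the largest log2 fold change among those whose FS and EpiSC lines did not overlap, and up to 3 with the largest fold between AF32 and AFX6. A gene that this rule names is not reported here. For each of the 8, the genes most alike across cells (at least 20 CPM in every line) were taken by mean Spearman rho.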

Additional observations from a re-analysis of the deposited data

Results flagged for a closer look

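The 58 cells under the limit of 3000000 counts entered no comparison, yet all 8 genes were detected in them above what a count of 0 allows (0.0316 CPM over their summed counts). Summed CPM there was 28.9 for Lin28a, 60.7 for Lin28b, 37.6 for Trim71, 199.8 for Igf2bp1, 86.2 for Igf2bp2, 75.5 for Igf2bp3, 59.3 for Hmga2 and 10.2 for Dis3l2. AFX6 supplied 30 of these cells, AF32 16 and each FS line 6. The sums therefore lean towards EpiSCs, and the level of each FS line there rests on few cells. Hmga2 stood above its level in the kept cells of all lines (16.1 CPM), with 89.5 CPM in the AFX6 cells under the limit against 27.9 in those kept. Dis3l2 stood below its level in the kept cells (39.5 CPM). Lin28a, Trim71, Igf2bp1 and Hmga2 had the same order of the groups there as in kept cells, Lin28a with 108 and 78.5 CPM in the cells of 5ar1 and 5ar2 under the limit and 14.8 and 17.4 CPM in those of AFX6 and AF32. Dis3l2 overlapped there, at 21.3 and 0.404 CPM in the cells of 5ar1 and 5ar2 and 11.1 and 9.38 CPM in those of AFX6 and AF32, and so did Igf2bp3, at 176 and 44.4 against 70.5 and 71.2 CPM. Lin28b did not overlap there, at 37.5 and 41.0 CPM in FS lines and 63.8 and 67.7 CPM in EpiSC lines.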

How the results depend on the processing

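The edgeR count of 0 genes called between FS cells and EpiSCs stood at 0 under every alternative run on all lines except DESeq2, which called 1454. With 2 lines against 2, the lowest edgeR adjusted p of any gene was 0.190. A count of 0 therefore cannot tell an absence of differences from too few lines to detect them. Over the 8 genes and all kept cells, the share of values with a count was 89.7% after thinning to 3000000 counts, 91.9% unthinned, 85.5% after thinning to 1000000 counts and 83.2% at a limit of 1 CPM. Lin28b changed direction between FS cells and EpiSCs with cells of at least 4000000 counts (log2 fold change 0.0388, edgeR adjusted p 0.969). Dis3l2, -0.0522 on the log2 scale for AF32 minus AFX6, became 0.0524 as mean CPM per cell, 0.0243 in sctransform values, 0.0133 over all cells, 0.0458 after thinning to 1000000 counts and 0.0248 after division by the chromosome's ratio. Trim71, 0.0657 for 5ar1 minus 5ar2, became -0.0012 with cells of at least 4000000 counts. The cause was not tested. Of 88 alternative values of the FS against EpiSC log2 fold changes, 86 kept direction and side of the threshold, and DESeq2 moved Lin28a past it. Where no gene of the whole table was called, the side of the threshold could not change. Without the highest cell of each line, or without cells with few detected genes, all 8 genes kept their order between the groups. No paired analysis was possible because the numbers in the labels only count the cells of a line, and the lines were summed.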
